A study of Mus musculus with 8 samples.

Results

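The ERK feedback genes described here are 10 mouse genes that encode brakes on growth factor signalling: the MAP kinase phosphatases Dusp1, Dusp4, Dusp5, Dusp6 and Dusp14, the Sprouty genes Spry1, Spry2 and Spry4, and the Spred genes Spred1 and Spred2. They were taken by name from a count table of 30419 gene names, and 10 of 10 were found in it. The cells were mouse embryonic fibroblasts of early passage, grown from E13.5 embryos, and each of 4 groups had 2 libraries, called A and B. The groups were mutant cells (lox sites at Dino on both alleles) with doxorubicin, mutant cells with vehicle, WT cells (Dino +/+) with doxorubicin, and WT cells with vehicle. Doxorubicin, a topoisomerase poison that breaks DNA, was given at 0.2 µg/mL, and RNA was taken after 8 h from drug and vehicle cells alike. Dino is a noncoding RNA gene next to Cdkn1a, the series title asks which expression depends on it, and its RNA level was not analysed. The labels name no Cre recombinase and do not say whether the letters stand for separate embryos or cultures, so p-values measure only the spread between these libraries, which may be technical.

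ERK is the last kinase of a chain that runs from receptor tyrosine kinases through Ras, Raf and MEK. Active ERK switches on genes whose products shut the same chain down. Dual-specificity phosphatases (Dusp) strip phosphate from ERK, JNK or p38, whereas Sprouty and Spred proteins act further up, between the receptor and Raf. Transcripts of these feedback genes are widely read as an output of ERK signalling in fibroblasts, although stress signals and p53 are also known to act on some of them.

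Libraries held 25482805 to 33285171 counts, and values below are CPM, counts brought to a common library size, scaled by TMM, a method that evens out library composition. Apart from marker sums and the choice of promoters to print, levels are set side by side within a gene and not between genes. The labels name both an exome-capture kit and 3' sequencing, and no value was divided by transcript length. Of the 10 genes, 9 had enough counts for the test, which was run on 12255 genes. A gene is called at an adjusted p under 0.05. The p53 targets Cdkn1a, which encodes p21, and Mdm2, which encodes the ligase that removes p53, rose with doxorubicin: Cdkn1a had log2 fold changes of 2.50 ± 0.10 (SE) in mutant cells and 2.46 ± 0.10 in WT cells, Mdm2 had 2.91 ± 0.07 and 3.09 ± 0.07, and Trp53 was not called in either. The A and B counts scattered most in WT cells with doxorubicin, where chi-square divided by its degrees of freedom was 18.2, against 5.43 to 6.16 in the other groups. The 12 fibroblast markers were all present, with sums of 5727 to 6301 CPM over the 8 libraries. Single markers did move with doxorubicin. In mutant cells 1 was called higher and 4 lower, where 28.3% and 25.9% of all genes tested were. In WT cells 4 were called higher and 4 lower, where 29.3% and 28.1% of all genes tested were. Pdgfra and Pdgfrb, which belong to this list too, were among those called lower in both genotypes. Epithelial markers summed to at most 0.847 CPM and endothelial markers to at most 11.3 CPM (5.72 to 6.25 with doxorubicin against 1.61 to 1.93 without in mutant cells, and 6.89 to 11.3 against 2.16 to 3.23 in WT cells). That sum moved with Tek, which was at 4.49 CPM with doxorubicin and 0.427 CPM without in mutant cells, and at 7.52 and 0.977 CPM in WT cells, while Kdr and Cdh5 were called in neither genotype and Tie1 was at 0. Leukocyte markers summed to 37.0 to 40.7 CPM with doxorubicin against 31.4 to 31.5 without in mutant cells. In WT cells they summed to 33.9 to 35.4 against 23.1 to 24.6 CPM. Of 8 leukocyte markers tested, 1 was called higher and 0 lower in mutant cells, and 4 higher and 0 lower in WT cells, beside the same all-gene shares. In whole cultures, fewer cells of a type and less RNA per cell cannot be told apart.

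**Figure D1:**
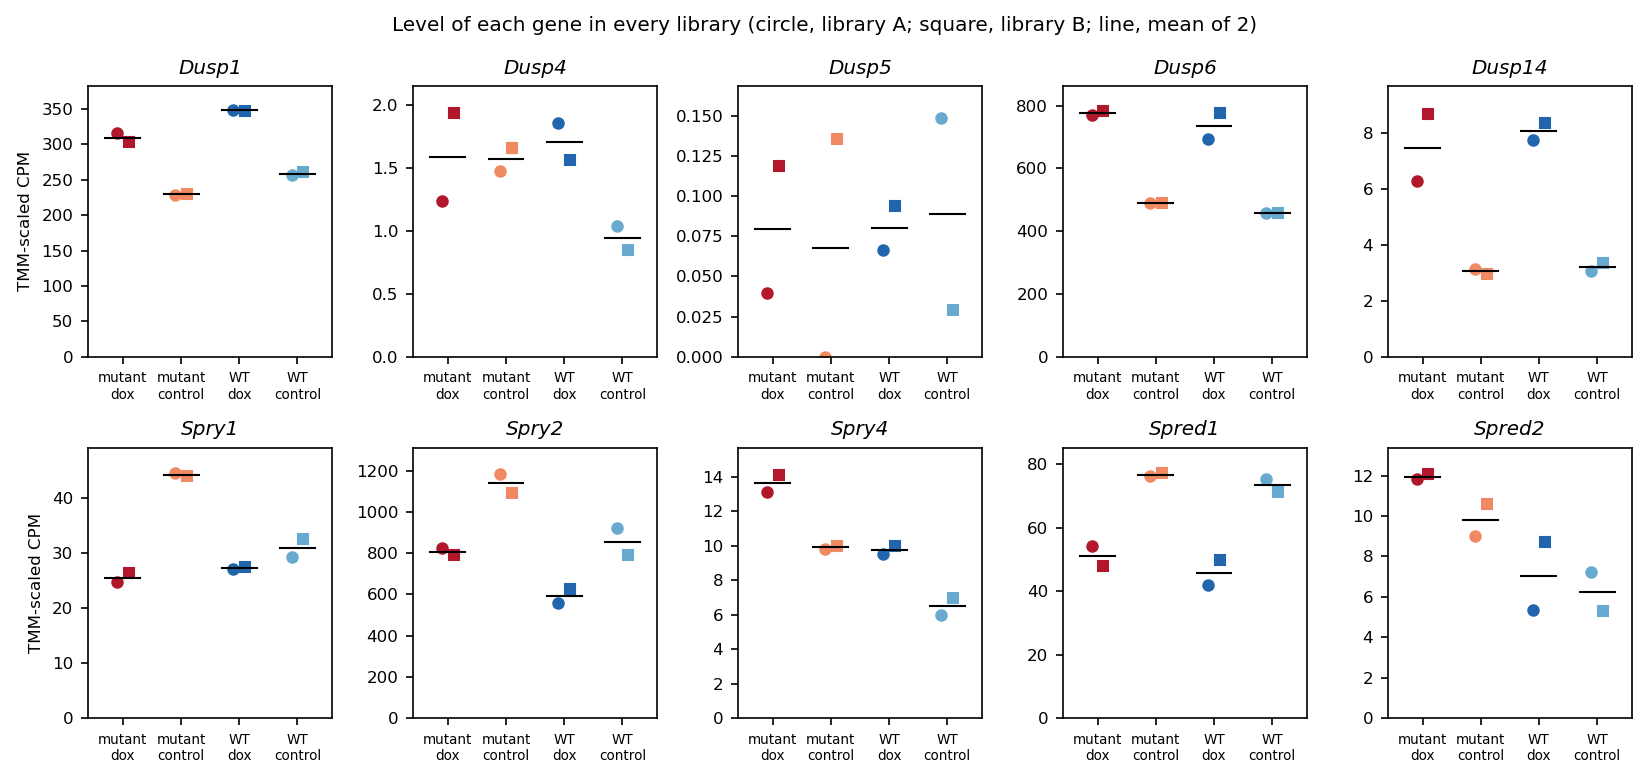
TMM-scaled CPM (vertical axes, from 0, with a scale of its own for each gene) of the 10 ERK feedback genes in the 8 libraries. Circles are library A, squares library B and lines the mean of 2 libraries; Dusp1, Dusp6 and Dusp14 stood higher with doxorubicin in both genotypes, Spry2 and Spred1 lower, and Dusp5 had at most 4 counts in any library.

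The first question was how the feedback genes answered doxorubicin. They did not move as 1 block. Dusp1, Dusp6, Dusp14 and Spry4 rose in both genotypes, by 1.34-fold to 2.51-fold. Spry2 and Spred1 fell in both, to levels 1.41-fold to 1.60-fold lower. Spry1 fell in mutant cells, and Dusp4 rose in WT cells. In mutant cells 4 of the 9 tested genes were called higher and 3 lower, where 28.3% and 25.9% of all genes tested were called higher and lower. In WT cells 5 were called higher and 2 lower, where 29.3% and 28.1% of all genes tested were. The median log2 fold change of the 9 genes was 0.28 in mutant cells and 0.43 in WT cells, against 0.01 and 0.01 over all genes tested. With only 9 tested genes, the counts are small, and whether they depart from those shares was not tested.

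Dusp6, a cytoplasmic phosphatase with a strong preference for ERK, was at 770.2 and 782 CPM in mutant libraries with doxorubicin, against 489.8 and 491 CPM in mutant controls. In WT cells it was at 692 and 777 CPM with doxorubicin, against 456 and 458 CPM in controls. The treated libraries lay above the controls in both genotypes, with log2 fold changes of 0.66 ± 0.07 in mutant cells (adjusted p = 3.05e-08) and 0.68 ± 0.07 in WT cells (adjusted p = 1.61e-08). Dusp1, a nuclear phosphatase of p38, JNK and ERK and an early response gene, was at 316 and 303 CPM with doxorubicin in mutant cells, against 228 and 231 CPM in their controls. In WT cells Dusp1 was at 348 and 348 CPM with doxorubicin, against 258 and 260.4 CPM without. Here too no treated library overlapped a control, and the log2 fold change was 0.43 ± 0.06 in each genotype (adjusted p = 6.38e-06 in mutant cells and 6.39e-06 in WT cells). Ergic1, a gene on the opposite strand whose GENCODE bounds overlap those of Dusp1, went the other way, with log2 fold changes of -0.23 ± 0.06 in mutant cells and -0.18 ± 0.06 in WT cells, both called lower. The strand setting of the counting is not given in the sources used here, so reads shared between these genes cannot be told apart. GENCODE also lists a processed pseudogene and a sense intronic gene over Dusp1 on its own strand, which could share its reads under any strand setting, and a processed pseudogene on the opposite strand. On the opposite strand Dusp5 is overlapped by an antisense gene, Spry1 by a gene of unsettled class and Spry4 by genes of the miscellaneous RNA class.

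Dusp14, which encodes a small phosphatase without the kinase-docking domain of the larger ones, had the largest fold change of the 9 tested genes in each genotype. It was at 6.28 and 8.70 CPM with doxorubicin in mutant cells, against 3.16 and 2.98 CPM in their controls, and at 7.78 and 8.39 CPM with doxorubicin in WT cells, against 3.08 and 3.35 CPM in theirs. Treated libraries stood clear of the controls, and the log2 fold change was 1.29 ± 0.17 in mutant cells (adjusted p = 1.57e-06) and 1.33 ± 0.16 in WT cells (adjusted p = 5.38e-07). Dusp4, a nuclear phosphatase of ERK and JNK, was scarce, at 28 to 56 counts per library. It was at 1.24 and 1.94 CPM with doxorubicin in mutant cells, against 1.48 and 1.66 CPM in their controls, ranges that overlap (log2 fold change 0.02 ± 0.27, adjusted p = 0.957). In WT cells it was at 1.85 and 1.56 CPM with doxorubicin, against 1.04 and 0.851 CPM without (0.86 ± 0.28, adjusted p = 0.0135). That call was lost with DESeq2 (adjusted p = 0.0938), without WT control library B (0.113) and without WT doxorubicin library A (0.0824), in a range of 0.00557 to 0.113 over 15 alternatives. Dusp5, a nuclear phosphatase specific for ERK, had 0 to 4 counts in every library, about the 3 counts that a count of 0 allows (0.0880 to 0.120 CPM), so no change was detectable at this depth.

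The promoters of Dusp1 and Dusp6 are shown because these are the phosphatase genes with the most counts that rose in both genotypes. The windows run from 250 bases before to 50 bases after the start site, in RefSeq's GRCm38.p6 sequence, 5′ to 3′; 8 of the 10 genes had such a window, and Dusp4 and Spry4 had none. Capitals mark matches, on either strand, to the cAMP response element (TGACGTCA) or its core (TGACGT), the AP-1 site (TGANTCA), the E-box (CACGTG), the ETS core (CCGGAA), the CCAAT box (CCAAT), the TATA box (TATAAA), the serum response element and the p53 response element (2 half-sites with no mismatch, up to 13 bases apart).
Dusp1 (chr17:26508423-26508722, minus strand): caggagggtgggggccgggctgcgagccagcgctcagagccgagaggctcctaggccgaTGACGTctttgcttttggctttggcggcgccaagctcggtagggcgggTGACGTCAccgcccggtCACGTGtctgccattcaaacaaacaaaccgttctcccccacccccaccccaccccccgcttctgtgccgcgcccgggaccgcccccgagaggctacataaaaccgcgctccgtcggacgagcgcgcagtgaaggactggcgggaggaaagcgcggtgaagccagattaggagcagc
Dusp6 (chr10:99262981-99263280, plus strand): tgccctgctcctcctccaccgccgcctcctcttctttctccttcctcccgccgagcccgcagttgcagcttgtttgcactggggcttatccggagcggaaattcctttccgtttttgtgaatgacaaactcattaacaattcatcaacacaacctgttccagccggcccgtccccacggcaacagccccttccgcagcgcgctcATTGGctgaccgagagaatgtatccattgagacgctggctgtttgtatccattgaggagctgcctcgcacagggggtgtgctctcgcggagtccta

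The Dusp1 window held a full cAMP response element at -143 to -136 from the start site, found in 1.79% of the 32851 promoter windows of the same length, a further core at -191 to -186 and an E-box at -126 to -121. Dusp1 was the 1 gene of the 8 with the full element, and the core, which lies within the full element, occurred in 7.51% of all windows, in those of Dusp5 and Spred2 too. The Dusp6 window held a CCAAT box at -46 to -42, a motif of 37.4% of all windows. The serum response element, in 1.63% of all windows, matched at 2 places in that of Dusp5, and the p53 response element, in 0.0731% of all windows, matched in no window of the 8 genes. A missing match says only that these letters are not in the window.

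Among the Sprouty genes, whose products hold back Ras and Raf activation, Spry2 fell in both genotypes. It was at 823 and 792 CPM with doxorubicin in mutant cells, against 1184 and 1094 CPM in their controls, and at 557 and 627 CPM with doxorubicin in WT cells, against 921 and 789 CPM in theirs. All treated libraries lay below the controls of their genotype (log2 fold change -0.50 ± 0.08, adjusted p = 1.38e-05, in mutant cells and -0.53 ± 0.08, adjusted p = 5.30e-06, in WT cells). Spry4 moved the other way. It was at 13.1 and 14.1 CPM with doxorubicin in mutant cells, against 9.81 and 10.0 CPM in their controls, and at 9.51 and 9.98 CPM with doxorubicin in WT cells, against 5.98 and 6.98 CPM in theirs. The log2 fold changes were 0.46 ± 0.12 (adjusted p = 0.00215) and 0.58 ± 0.12 (adjusted p = 0.000369).

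Spry1 was at 24.8 and 26.3 CPM with doxorubicin in mutant cells, against 44.5 and 44.0 CPM in their controls, and no library overlapped: Spry1 fell by 42.2% (log2 fold change -0.79 ± 0.09, adjusted p = 1.08e-07). In WT cells it was at 27.2 and 27.4 CPM with doxorubicin, against 29.3 and 32.6 CPM without. The WT groups did not overlap either, but the change was smaller and was not called (-0.18 ± 0.09, adjusted p = 0.0774). It was called with upper-quartile scaling (adjusted p = 0.0257) and without WT control library A (0.0411), in a range of 0.0257 to 0.455 over 16 alternatives.

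The promoters of Spry1 and Spry2, the Sprouty genes that were lower with doxorubicin in mutant cells, are printed in the same way for comparison with those of Dusp1 and Dusp6.
Spry1 (chr3:37639697-37639996, plus strand): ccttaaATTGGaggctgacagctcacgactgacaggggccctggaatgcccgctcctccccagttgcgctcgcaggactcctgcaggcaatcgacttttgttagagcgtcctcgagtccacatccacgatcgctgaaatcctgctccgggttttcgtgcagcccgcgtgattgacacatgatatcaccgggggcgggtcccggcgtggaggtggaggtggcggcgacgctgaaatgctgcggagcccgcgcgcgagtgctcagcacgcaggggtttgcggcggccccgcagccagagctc
Spry2 (chr14:105896770-105897069, minus strand): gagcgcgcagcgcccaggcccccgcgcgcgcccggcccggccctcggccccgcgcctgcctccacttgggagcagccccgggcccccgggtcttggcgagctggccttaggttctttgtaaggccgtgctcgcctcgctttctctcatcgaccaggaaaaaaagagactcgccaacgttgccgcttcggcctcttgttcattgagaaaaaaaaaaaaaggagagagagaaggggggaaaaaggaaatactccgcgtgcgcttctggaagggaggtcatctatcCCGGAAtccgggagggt

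The Spry1 window held a CCAAT box at -244 to -240 and the Spry2 window an ETS core at 33 to 38, a motif of 14.9% of all windows that was also in that of Dusp14. None of the 8 windows had an AP-1 site, which 7.81% of all windows have, or a TATA box, which 13.6% have.

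The Spred genes encode membrane-bound relatives of Sprouty. Spred1, which brings the Ras inhibitor neurofibromin to the membrane, was at 54.2 and 48.0 CPM with doxorubicin in mutant cells, against 76.2 and 77.1 CPM in their controls. In WT cells it was at 41.8 and 49.7 CPM with doxorubicin, against 75.4 and 71.3 CPM without. Treated and control libraries stood well apart in both genotypes, with log2 fold changes of -0.59 ± 0.09 in mutant cells (adjusted p = 8.09e-06) and -0.68 ± 0.09 in WT cells (adjusted p = 9.77e-07). Spred2 was at 11.8 and 12.1 CPM with doxorubicin in mutant cells, against 9.02 and 10.6 CPM in their controls (0.28 ± 0.17, adjusted p = 0.169). In WT cells Spred2 was at 5.33 and 8.73 CPM with doxorubicin, against 7.21 and 5.28 CPM without, and these groups overlapped (0.19 ± 0.18, adjusted p = 0.400). The 2 treated WT libraries lay far apart: the WT log2 fold change of Spred2 was 0.50 without WT doxorubicin library A (adjusted p = 0.0173) and -0.22 without library B (0.352).

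**Figure D2:**
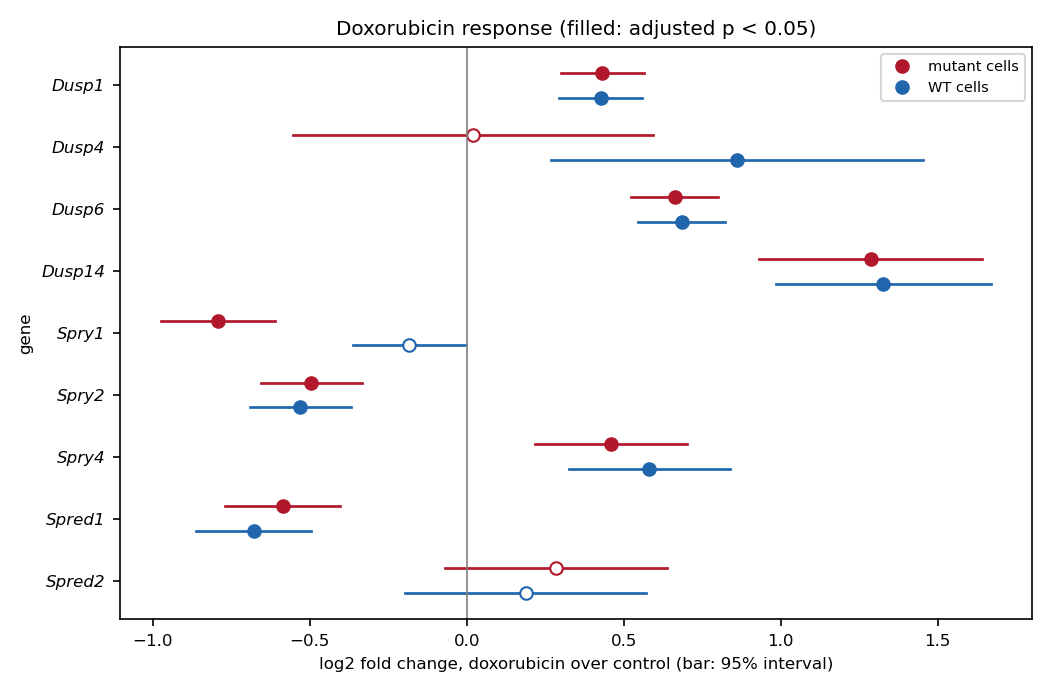
Log2 fold change with doxorubicin (horizontal axis, doxorubicin over control) of the 9 tested genes in mutant cells (red, upper) and WT cells (blue, lower), n = 2 libraries per group. Bars are 95% intervals from the edgeR fit and filled points were called; the 2 genotypes lie close for Dusp1, Dusp6, Dusp14, Spry2, Spry4 and Spred1 and furthest apart for Dusp4 (0.02 in mutant and 0.86 in WT cells) and Spry1 (-0.79 and -0.18).

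Whether the responses differed between the genotypes was tested as the mutant minus the WT log2 fold change. Among the 9 tested genes, edgeR called 0 higher and 0 lower, where 0.0326% and 0.0408% of all genes tested were called. At an unadjusted p under 0.05 there were 0 higher and 2 lower, which were Spry1 and Dusp4. DESeq2 called 1 gene lower, Spry1, and limma-voom called 0. Spry1 had a difference of -0.61 ± 0.12 (95% interval -0.87 to -0.35), just short of a call at an adjusted p of 0.0538. It was called with DESeq2 (adjusted p = 0.0357), with no filter on low counts (0.00425) and without WT doxorubicin library B (0.0456), and over 15 alternatives the adjusted p ran from 0.00425 to 0.390. Dusp4 had -0.84 ± 0.40 (interval -1.67 to -0.02, adjusted p = 0.856). For Dusp6 the difference was -0.02 (interval -0.22 to 0.17), for Dusp1 0.01 (-0.18 to 0.19), for Spry2 0.04 (-0.19 to 0.26) and for Spred1 0.09 (-0.17 to 0.35). The intervals of Dusp14 (-0.54 to 0.46), Spry4 (-0.48 to 0.23) and Spred2 (-0.43 to 0.62) were wider.

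The next comparison set mutant against WT cells in each condition. Without doxorubicin the 3 Sprouty genes and Spred2 were higher in mutant cells, by 1.33-fold to 1.59-fold, while none of the 4 tested phosphatase genes was called. Of the 9 tested genes 4 were called higher, where 2.75% of all genes tested were, and edgeR called 0 lower, where 3.17% of all genes were (1 lower at an unadjusted p under 0.05, Dusp1, and 0 with DESeq2 or limma-voom). Without WT control library B, 2 were called higher. With doxorubicin 3 were called higher, Spry2, Spry4 and Spred2, where 3.92% of all genes tested were, and 1 was without WT doxorubicin library A. Again 0 were called lower, where 3.82% of all genes were (1 at an unadjusted p under 0.05, Dusp1, and 0 with DESeq2 or limma-voom). The median log2 fold change of the 9 genes was 0.41 without and 0.08 with doxorubicin, against -0.00270 and -0.00104 over all genes tested.

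Spry2 had a log2 fold change, mutant over WT, of 0.41 ± 0.08 without doxorubicin (adjusted p = 0.00136) and 0.45 ± 0.08 with it (adjusted p = 0.000565). Its levels ran from 1139 ± 63.6 CPM in mutant controls (SD, n = 2) down through 855 ± 92.8 CPM in WT controls and 808 ± 22.1 CPM in treated mutant cells, which overlapped, to 592 ± 49.9 CPM in treated WT cells. Without WT control library B the call in untreated cells was lost (adjusted p = 0.0623). Spry4 had 0.60 ± 0.12 without doxorubicin (adjusted p = 0.00302) and 0.48 ± 0.12 with it (adjusted p = 0.0109). It was highest in treated mutant cells (13.6 ± 0.698 CPM), about level in mutant controls (9.90 ± 0.132 CPM) and treated WT cells (9.74 ± 0.338 CPM), whose libraries overlapped, and lowest in WT controls (6.48 ± 0.709 CPM). The Spry4 calls were lost without WT control library A in untreated cells (adjusted p = 0.0689), and without WT doxorubicin library A (0.0845) or mutant doxorubicin library B (0.111) in treated cells.

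Spry1 was at 44.2 ± 0.404 CPM in mutant controls and 31.0 ± 2.37 CPM in WT controls (log2 fold change 0.51 ± 0.09, adjusted p = 0.000359), and this call held in 16 of 16 alternatives. With doxorubicin Spry1 was at 25.5 ± 1.05 CPM in mutant cells and 27.3 ± 0.157 CPM in WT cells, a gap that was not called (-0.10 ± 0.09, adjusted p = 0.623). The gap between the genotypes was thus called in untreated cells, and its change with doxorubicin is the difference tested above, which missed the threshold. The mutant response of Spry1 and this gap share the mutant control libraries. Spred2 was at 9.82 ± 1.12 CPM in mutant controls and 6.25 ± 1.36 CPM in WT controls (0.66 ± 0.18, adjusted p = 0.0286). With doxorubicin it was at 12.0 ± 0.150 CPM in mutant cells and 7.03 ± 2.40 CPM in WT cells (0.76 ± 0.18, adjusted p = 0.00794). The call in untreated cells was lost with DESeq2 (adjusted p = 0.0641) and without WT control library B (0.440), mutant control library A (0.0501) or mutant control library B (0.282). In treated cells the log2 fold change was 0.45 without WT doxorubicin library A, where the call was lost (adjusted p = 0.155), and 1.17 without WT doxorubicin library B.

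Of the genes not called, Dusp6 had 0.10 ± 0.07 (adjusted p = 0.531) and 0.08 ± 0.07 (0.576) without and with doxorubicin, and Spred1 0.07 ± 0.09 (0.816) and 0.16 ± 0.09 (0.354). Dusp14 had -0.07 ± 0.19 (0.920) and -0.11 ± 0.15 (0.763), and Dusp1 -0.17 ± 0.06 (0.139) and -0.17 ± 0.06 (0.123). Dusp4 had 0.74 ± 0.29 (0.180) and -0.10 ± 0.27 (0.893).

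**Figure D3:**
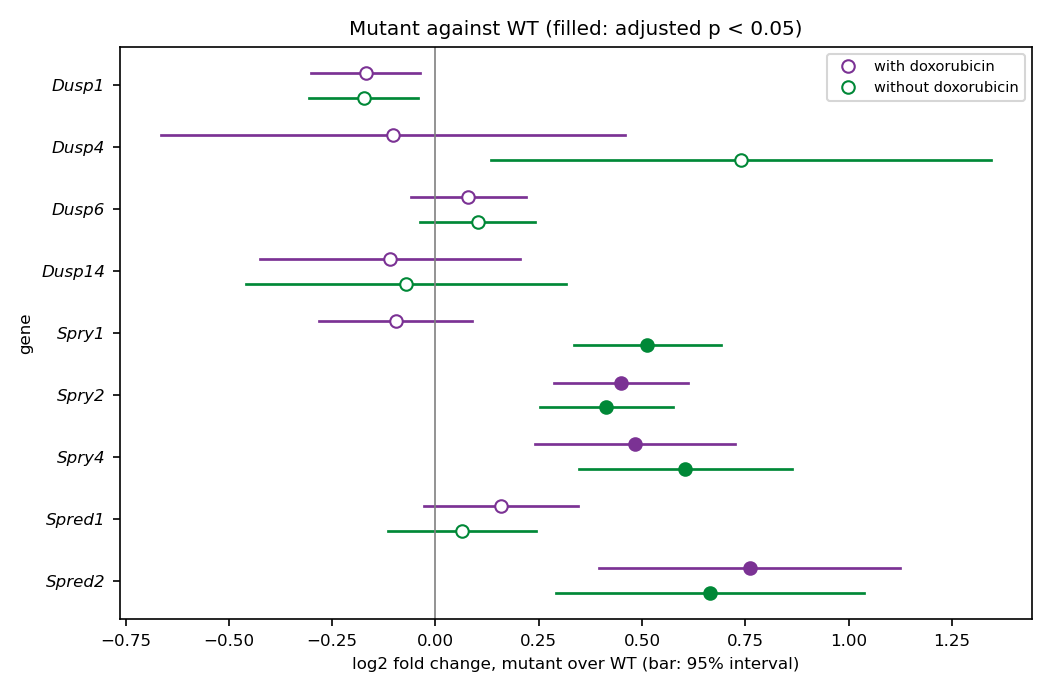
Log2 fold change of mutant over WT (horizontal axis) of the 9 tested genes with doxorubicin (purple, upper) and without (green, lower), n = 2 libraries per group. Bars are 95% intervals and filled points were called; the filled points are Spry2, Spry4 and Spred2 in both conditions and Spry1 without doxorubicin, all to the right of 0.

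The genotypes also differed in sex-linked genes in the same libraries. Xist, the silencing RNA of the inactive X, was at 233 ± 29.4 CPM in mutant controls and 0.277 ± 0.0236 CPM in WT controls, and the 4 Y-linked genes of the list were called lower in mutant cells in both conditions. They were not absent there: Ddx3y was at 74.0 CPM in mutant controls and 546 CPM in WT controls, and Eif2s3y at 12.5 CPM in mutant controls and 80.9 CPM in WT controls. Xist was at 522 ± 74.5 CPM in treated mutant cells and 0.304 ± 0.102 CPM in treated WT cells. Cdkn1a was lower in mutant than in WT cells too (-0.49 ± 0.11 without and -0.45 ± 0.09 with doxorubicin). Neural markers summed to 50.1 to 51.5 CPM in mutant controls and 23.0 to 23.5 CPM in WT controls, and 1 gene, Map2, carried most of that gap (43.6 CPM in mutant and 17.4 CPM in WT controls). Tubb3 and Stmn2, the other neural markers tested, were not called between the genotypes in either condition. Leukocyte markers summed to 31.4 to 31.5 CPM in mutant controls and 23.1 to 24.6 CPM in WT controls. Of 8 leukocyte markers tested, 1, Ptprc, was called higher in mutant controls (0.67 ± 0.18, adjusted p = 0.0235) and 7 were not called. Of all genes tested 2.75% were called higher there. With doxorubicin the neural sums were 29.9 to 31.2 CPM in mutant cells and 14.8 to 14.9 CPM in WT cells, again with Map2 apart (23.7 and 8.14 CPM) and Tubb3 level (4.77 and 4.90 CPM), and the leukocyte sums 37.0 to 40.7 CPM and 33.9 to 35.4 CPM. Of the 8 leukocyte markers tested, Csf1r (1.01 ± 0.25) and Fcer1g (0.87 ± 0.19) were called higher in treated mutant cells and 6 were not called. Of all genes tested 3.92% were called higher there. The sex-linked genes split the 8 libraries in the same way as genotype, so the parts of sex and genotype cannot be told apart here. The part of Cdkn1a or of other cells in the Sprouty and Spred2 values was not tested. Shoc2, which encodes a scaffold that helps to activate Raf and was singled out after its values were seen, was at 187 ± 5.65 CPM in mutant controls and 38.1 ± 0.219 CPM in WT controls (log2 fold change 2.30 ± 0.08, adjusted p = 7.88e-15). Frs2, a docking protein of FGF receptors, was lower in mutant controls (-0.24 ± 0.07, adjusted p = 0.0380). It was the 1 gene called lower there of 24 tested in the ERK cascade list, where 3.17% of all genes tested were. Shoc2 was the 1 called higher, where 2.75% were. With doxorubicin Frs2 was not called (-0.09 ± 0.07, adjusted p = 0.530). Of the 24 genes, 2 were called higher and 1 lower in treated mutant cells, where 3.92% and 3.82% of all genes tested were.

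Other genes of the pathway were grouped by role and described for the doxorubicin response. The counts of each group are to be read against the shares of all genes tested, 28.3% higher and 25.9% lower in mutant cells and 29.3% higher and 28.1% lower in WT cells, and against all-gene medians of 0.01 in both, and none is called particular to its group. Of 24 tested genes of the ERK cascade itself, 5 rose, 9 fell and 10 were not called in mutant cells, and 8 rose, 10 fell and 6 were not called in WT cells, with medians of -0.15 and -0.10. Nras, a Ras gene, fell, with log2 fold changes of -0.81 ± 0.07 in mutant cells and -0.85 ± 0.07 in WT cells. Frs2 fell by similar amounts (-0.77 ± 0.07 and -0.92 ± 0.07). Mapk3, which encodes ERK1, had -0.54 ± 0.23 in mutant cells (adjusted p = 0.0507) and was called in WT cells (-0.88 ± 0.23, adjusted p = 0.00224). It was also called in mutant cells under 7 of the alternatives, with adjusted p of at least 0.0197.

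Of 13 tested growth factor receptor genes, 3 rose, 6 fell and 4 were not called in mutant cells, and 2 rose, 5 fell and 6 were not called in WT cells (medians -0.18 and -0.23), where 28.3% and 25.9% of all genes rose and fell in mutant cells and 29.3% and 28.1% in WT cells. The PDGF receptor genes fell: Pdgfra was at 23.8 ± 3.13 CPM with doxorubicin and 83.0 ± 3.10 CPM without in mutant cells, and at 19.6 ± 2.38 and 73.5 ± 5.15 CPM in WT cells. Pdgfrb had log2 fold changes of -1.79 ± 0.14 in mutant cells and -1.49 ± 0.14 in WT cells, and Igf1r, the IGF receptor gene, -0.78 ± 0.08 and -0.85 ± 0.08. Egfr, the EGF receptor gene, rose (1.29 ± 0.09 and 1.14 ± 0.08).

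Of 22 tested genes known to be transcribed downstream of ERK, other than the feedback genes, 11 rose, 5 fell and 6 were not called in mutant cells, and 11 rose, 7 fell and 4 were not called in WT cells, with medians of 0.36 and 0.51 against 0.01 and 0.01 over all genes. Of all genes tested 28.3% rose and 25.9% fell in mutant cells, and 29.3% rose and 28.1% fell in WT cells. Among them were the early response transcription factor gene Fos (3.06 ± 0.12 in mutant and 2.75 ± 0.11 in WT cells), the cytokine gene Lif (3.04 ± 0.19 and 3.16 ± 0.18) and the EGF receptor ligand gene Areg (2.97 ± 0.24 and 2.57 ± 0.24). Myc fell (-1.78 ± 0.12 and -1.88 ± 0.12).

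Of 13 other phosphatase, Spry and Spred genes tested, 7 rose, 1 fell and 5 were not called in mutant cells, and 5 rose and 8 were not called in WT cells (medians 0.39 and 0.16, against 0.01 and 0.01 over all genes), beside the all-gene shares of 28.3% and 25.9% in mutant cells and 29.3% and 28.1% in WT cells. Dusp28 was at 6.04 ± 1.13 CPM with doxorubicin and 0.885 ± 0.282 CPM without in mutant cells, and at 6.49 ± 0.192 and 0.810 ± 0.274 CPM in WT cells. Dusp9, an ERK phosphatase gene, had log2 fold changes of 1.67 ± 0.31 in mutant cells and 1.49 ± 0.27 in WT cells, and Dusp8, a JNK phosphatase gene, 1.38 ± 0.38 and 1.18 ± 0.37. Dusp2 had 6 to 10 counts with doxorubicin against 2 to 3 without in mutant cells, and 17 to 24 against 1 to 2 in WT cells. The Dusp8 call was lost in WT cells with DESeq2 (adjusted p = 0.0918) and without WT control library A (0.0692) or WT doxorubicin library A (0.0589), and in mutant cells without mutant doxorubicin library B (0.0589). The Dusp2 call in mutant cells was lost with DESeq2 (adjusted p = 0.160), when low genes were kept (0.0567), and without WT doxorubicin library A (0.0571), mutant control library A (0.0930) or B (0.176) or mutant doxorubicin library A (0.248).

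Of 14 tested JNK and p38 kinase genes, 5 rose, 3 fell and 6 were not called in mutant cells (median 0.14). In WT cells 6 rose, 4 fell and 4 were not called (median 0.32). The shares of all genes that rose and fell were 28.3% and 25.9% in mutant cells and 29.3% and 28.1% in WT cells. Mapkapk3, a p38-activated kinase gene, rose (2.22 ± 0.23 in mutant and 2.60 ± 0.20 in WT cells), as did Mapk9, which encodes JNK2 (1.53 ± 0.09 and 1.51 ± 0.09). Map2k6, an activator of p38, fell (-1.29 ± 0.22 and -1.21 ± 0.21). Mapk12, a p38 gene, had at most 20 counts in any library and log2 fold changes of -0.58 ± 0.57 in mutant cells (adjusted p = 0.414) and -1.77 ± 0.56 in WT cells (adjusted p = 0.0102). The Mapk12 call was lost with DESeq2 (adjusted p = 0.107) and without WT control library B (0.123) or WT doxorubicin library B (0.0812).

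**Figure D4:**
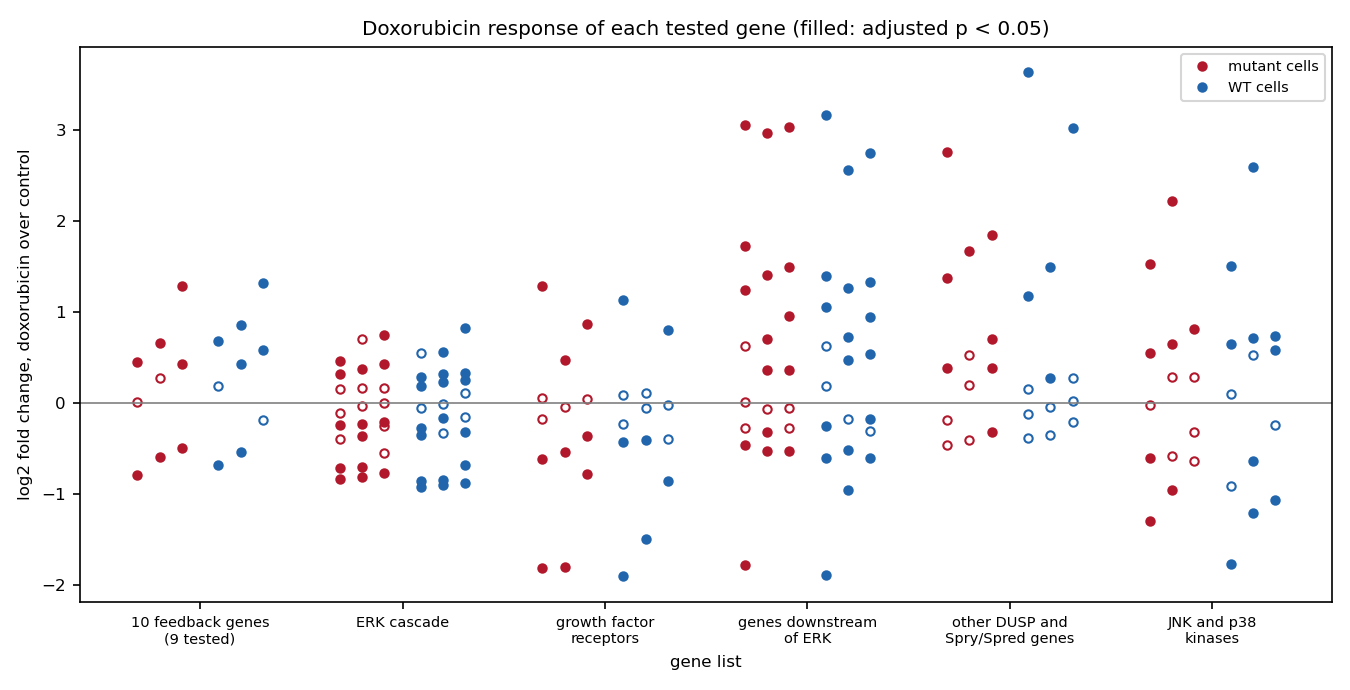
Log2 fold change with doxorubicin (vertical axis, doxorubicin over control) of each tested gene of 6 lists, in mutant cells (red, left) and WT cells (blue, right), n = 2 libraries per group. Filled points were called; each list holds genes on both sides of 0, and the feedback genes lie between -0.79 and 1.33.

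The genes most like each feedback gene were named by Pearson's r of log2 CPM over the 8 libraries, among 6987 other genes of at least 4 CPM on average. These values describe 4 groups rather than independent points, and the splits by treatment and by genotype can both enter them. Dusp1 was closest to Tirap (r = 0.997) and Dstn (0.996), Dusp6 to C030046E11Rik (0.997) and Nt5dc3 (0.997), Dusp14 to Zfp809 (0.998) and Cdc42bpg (0.994), and Dusp4 to Rab5c (0.951) and Atp5d (0.916). Spry2 was closest to Srpk2 (0.988) and Klf13 (0.986), Spry1 to Mtx2 (0.964) and Psma5 (0.950), and Spry4 was close to Sprr2k (0.980). Sprr2k belongs to a family with near-identical copies, so its counts are uncertain. Spred1 was closest to Hnrnpul2 (0.995) and Slc16a1 (0.993), and Spred2 to Rbm12b2 (0.983) and Nucks1 (0.972).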

How the data were processed

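RNA of 8 libraries was counted per gene. The authors deposited raw counts, with no normalization, and per the submitters' processing notes used Bowtie2, HTSeq and the mm9 genome. Versions, annotation, strand setting and the handling of multiply mapped reads are not given in the sources used here. The labels name both an RNA exome-capture kit and 3' sequencing, and this was not resolved.

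The count model was edgeR 4.0.16 (in R 4.3.3) with TMM factors and its quasi-likelihood F test. Low genes were removed by filterByExpr at a minimum count of 10 and a minimum total of 15. The 4 groups each had a coefficient, the 8 libraries shared 1 fit with 4 residual degrees of freedom, and the common biological coefficient of variation was 0.0636. Benjamini-Hochberg adjustment of the two-sided p ran over 12255 genes. The SE is the size of the log2 fold change divided by the square root of F. Floors for a count of 0 cover counting error only. The pipeline was tested on simulated data. The members and lists were chosen with earlier results of these data known. Named were all members, up to 4 called genes per list with the largest WT change, Cdkn1a, Mdm2 and Trp53, the sex-linked genes, and the 2 genes most like each tested member. Some genes that this rule names are not reported here. Alternatives were DESeq2 or upper-quartile size factors, DESeq2 1.42.0, limma-voom (limma 3.58.1), dropping the filter, raising it to 5 CPM in 2 libraries, only the libraries compared, a block for the library letter, and leaving out each library. Promoter windows came from RefSeq (GRCm38.p6) and gene overlaps from GENCODE (GRCm38), builds other than mm9, and were matched by symbol only.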

Additional observations from a re-analysis of the deposited data

How the results depend on the processing

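Alternatives were run for the feedback genes in every comparison and for the named list genes in the doxorubicin responses, and these kept their direction and their side of the threshold unless named here or in the report. None was run for the list counts, for Ergic1, or for the mutant against WT values of other genes (Frs2, Shoc2, Cdkn1a, the markers and the sex-linked genes). For the difference of the responses, the number of feedback genes called lower was 0, and 1 (Spry1) with DESeq2, with no filter and with the replicate block, and it ran from 0 to 1 when 1 library was left out. In untreated cells the number called higher in mutant cells ran from 2 to 4, and in treated cells from 1 to 3, when 1 library was left out. The letters A and B share no stated source, and their differences went together by r = -0.0417 to 0.0760 between groups. That r runs over all genes tested, also those with few counts, where counting noise lowers it. It cannot tell whether the letters mark pairs, so the block is given only as an alternative. With the replicate block Spry1 had a difference of -0.61 (adjusted p = 0.0456).

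Directions turned only for values that were not called. The mutant response of Dusp4 was -0.036 with upper-quartile factors and -0.0095 with limma-voom, and that of Trp53 was 0.013 with the 5 CPM filter. The difference of Dusp1 was -0.013 with no filter and -0.0079 with the 5 CPM filter. Leaving out 1 library gave differences of -0.029 to 0.029 for Dusp1, -0.12 to 0.055 for Dusp6, -0.30 to 0.17 for Dusp14, -0.075 to 0.14 for Spry2, -0.038 to 0.21 for Spred1 and -0.23 to 0.49 for Spred2. It gave mutant over WT with doxorubicin of -0.46 to 0.18 for Dusp4, -0.0028 to 0.17 for Dusp6 and -0.36 to 0.10 for Dusp14, WT responses of -0.22 to 0.50 for Spred2, and mutant responses of -0.34 to 0.31 for Dusp4 and -0.16 to 0.14 for Trp53. Upper-quartile factors moved the median WT response of all genes by -0.05. The 5 CPM filter left Dusp4 untested, and fitting only the libraries compared was not run for the difference. The cause of these changes was not tested.

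Over all genes, the difference called 4 higher and 5 lower, and 9 higher with DESeq2, 7 higher with the replicate block, 2 and 2 with limma-voom, 24 and 24 with no filter, and 2 and 3 with the 5 CPM filter. Leaving out 1 library gave 0 to 37 higher and 0 to 14 lower there, the most without WT doxorubicin library B. It gave as few as 165 higher (without WT control library B) and 200 lower (without mutant control library B) in untreated mutant cells, against 337 and 389 with all libraries. In treated ones it gave as few as 261 higher (without WT doxorubicin library A) and 261 lower (without mutant doxorubicin library A), against 481 and 468. Depth limits Dusp5, and counts under 60 per library limit Dusp4.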
